A study of Mus musculus with 3 samples.

Results

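Among the FOXF1 sites found in both lung pools, a small set scored higher in replicate 2 than in replicate 1, against the usual order. These sites were found by pairing summits of both replicates that were each other's nearest and lay at most 100 bp apart, and were chosen by their scores in both replicates: a pair was kept where the replicate 2 score was the larger. The rule kept 963 of 51013 shared sites, or 1.89% (95% exact interval 1.77 to 2.01%), and no pair was tied. They were drawn from 107378 summits of replicate 1 and 61172 of replicate 2 on the nuclear chromosomes. Each score is a −log10 significance given by the authors (p or q is not stated), so a higher score in 1 pool is not a measure of more bound protein.

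The lungs were those of wild-type mice of the C57BL/6 strain, taken whole late in gestation (embryonic day 18.5), and FOXF1-bound DNA was sequenced after chromatin immunoprecipitation. Each of the 2 biological replicates pooled 3 lungs, and 1 sample of 2% input from the same strain and stage was the control. Whole lung mixes many cell types, so a site bound in more cells and a site bound more strongly per cell cannot be told apart. The labels give neither the sex of the pooled lungs nor any batch.

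FOXF1 is a forkhead transcription factor of the lung mesenchyme and of the endothelium, needed for the growth of lung vessels. Forkhead proteins recognise a short core, TGTTTAC, mostly at enhancers away from promoters, inside genes or between them. Many mouse promoters, in contrast, lie in CpG islands, stretches rich in the dinucleotide CG. Many of these, though not all, are open in most cell types and belong to genes used throughout the body.

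The promoters of the highest-scoring of these sites are shown first because they carry the features described below. Of the sites inside a promoter window of the RefSeq table (GRCm38.p6, the assembly of mm10; 250 bases before to 50 after a gene start), 6 with the highest replicate 2 score and nearest to that gene's start are printed. Each line gives the 250 bases before the start, 5′ to 3′, with every CG in capitals. They lie at chrX:13280772-13281021 (plus strand) for Ddx3x, an RNA helicase gene, chr19:36833982-36834231 (plus) for the tankyrase gene Tnks2, chr2:164879118-164879367 (plus) for Pcif1, whose product methylates mRNA next to the cap, chr11:120581625-120581874 (minus) for Arhgdia, chr4:129820229-129820478 (plus) for the phosphatase gene Ptp4a2, and chr17:35235787-35236036 (minus) for Nfkbil1.
Ddx3x: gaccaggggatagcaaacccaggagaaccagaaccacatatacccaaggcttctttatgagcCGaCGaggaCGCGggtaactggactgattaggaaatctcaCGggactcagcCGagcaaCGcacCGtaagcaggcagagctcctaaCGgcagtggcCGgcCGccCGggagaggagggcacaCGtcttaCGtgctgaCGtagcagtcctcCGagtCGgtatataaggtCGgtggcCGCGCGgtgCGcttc
Tnks2: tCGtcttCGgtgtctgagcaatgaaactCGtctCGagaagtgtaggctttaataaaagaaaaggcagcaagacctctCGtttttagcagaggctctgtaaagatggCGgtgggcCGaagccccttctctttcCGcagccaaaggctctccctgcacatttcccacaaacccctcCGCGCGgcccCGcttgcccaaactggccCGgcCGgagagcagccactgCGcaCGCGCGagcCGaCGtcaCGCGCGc
Pcif1: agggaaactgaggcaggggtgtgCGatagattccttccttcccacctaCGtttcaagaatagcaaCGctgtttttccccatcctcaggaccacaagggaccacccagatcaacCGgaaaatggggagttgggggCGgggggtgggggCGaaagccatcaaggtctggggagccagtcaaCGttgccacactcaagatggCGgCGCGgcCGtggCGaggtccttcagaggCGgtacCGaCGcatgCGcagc
Arhgdia: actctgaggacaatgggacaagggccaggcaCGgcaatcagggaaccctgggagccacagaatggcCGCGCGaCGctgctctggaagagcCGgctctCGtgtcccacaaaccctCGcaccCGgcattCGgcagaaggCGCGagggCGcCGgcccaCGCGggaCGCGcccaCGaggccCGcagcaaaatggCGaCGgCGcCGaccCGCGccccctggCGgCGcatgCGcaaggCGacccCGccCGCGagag
Ptp4a2: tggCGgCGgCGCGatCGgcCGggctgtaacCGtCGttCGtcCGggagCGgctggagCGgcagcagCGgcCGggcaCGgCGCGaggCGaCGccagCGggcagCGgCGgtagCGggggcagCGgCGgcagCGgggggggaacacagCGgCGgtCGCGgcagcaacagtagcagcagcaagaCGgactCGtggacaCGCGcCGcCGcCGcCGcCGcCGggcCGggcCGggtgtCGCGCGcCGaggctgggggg
Nfkbil1: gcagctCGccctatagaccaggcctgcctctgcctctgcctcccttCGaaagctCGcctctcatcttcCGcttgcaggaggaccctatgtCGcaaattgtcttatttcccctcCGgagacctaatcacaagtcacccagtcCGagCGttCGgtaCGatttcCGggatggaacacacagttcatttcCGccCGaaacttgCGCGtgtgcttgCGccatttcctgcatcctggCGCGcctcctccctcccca
These 250 bases hold 22, 23, 16, 33, 46 and 18 CG dinucleotides, in the order printed. None of the 6 holds TGTTTAC on either strand. The letters AAGATGGCG, a YY1 motif, are in the windows of Tnks2 and Pcif1, and the palindromic motif of NRF1 is in that of Arhgdia.

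For most of these sites the excess was small. The median score was 17.7 in replicate 1 (10th to 90th percentile 6.43 to 46.03) and 20.8 in replicate 2 (7.78 to 49.8). The other 50050 shared sites had medians of 45.01 and 19.1. The sites that scored higher in replicate 2 thus had a replicate 2 score much like that of the rest, and a lower replicate 1 score. Their median ratio of replicate 2 to replicate 1 score was 1.11, against 0.433 in the rest. The ratio was under 1.1 in 440 of them, at least 1.5 in 82 and at least 2 in 14. These values chose the sites and are given as a description without a test, and no further replicate is left to test them on. Just inside the rule lay a site 210 bp from an end of Trp53inp1 with scores of 95.002 and 95.008, and sites in Lrmda and 34 bp from the start of Col18a1, each with 12.080 and 12.088. Just outside it lay a site 15 bp from the start of the matrix gene Postn and one near the integrin gene Itgb6, each with 12.743 and 12.737, and one near Dnttip2 with 7.080 and 7.079.

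**Figure D1:**
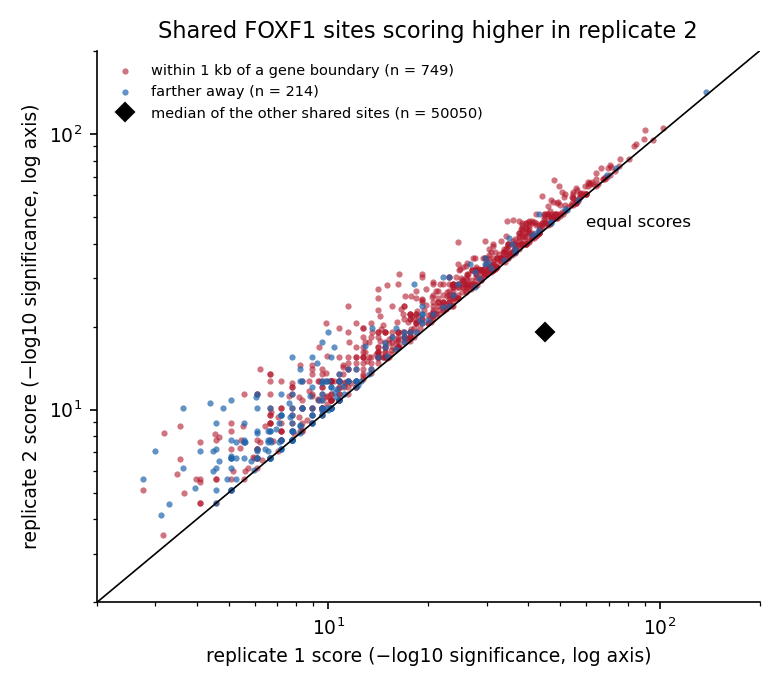
Replicate 1 score (x) against replicate 2 score (y) of the 963 sites that scored higher in replicate 2, both on log axes; the line marks equal scores, and the diamond the medians of the other shared sites. Most points hug the line. Those over 1 kb from a gene boundary gather at low scores, with a median replicate 2 score of 10.2 against 25.3 for those nearer.

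The highest of these sites stood mostly at gene starts. The site 17 bp downstream of the Ddx3x start (chrX:13281039) scored 90.4 in replicate 1 and 103.1 in replicate 2. The site at Tnks2 (chr19:36834191), a gene that modifies proteins of the WNT pathway and of telomeres, scored 84.7 and 91.6. The site at Pcif1 (chr2:164879417) scored 83.6 and 90.5. All of these lay within 50 bp of the start. The site at Arhgdia scored 75.8 and 80.9, that at Ptp4a2 70.4 and 77.2, and that at Oaz1, which encodes an inhibitor of polyamine synthesis, 80.7 and 80.9. A site inside Brd2, a gene for a bromodomain protein that reads acetylated histones, scored 102.4 and 105.4 and lay 618 bp downstream of a start and 411 bp from an end of H2-DMa. Another, on chromosome 18, scored 89.3 and 96.1. The highest of all was an exception in position: it lay between genes at chr11:101645798, 9709 bp from an end of Rdm1, with both summits on the same base and scores of 137.8 and 141.7.

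The largest ratios were found at lower scores. Among sites with both scores at least 10, the ratio was highest 78 bp from the start of Wwc1, a scaffold of the Hippo pathway, at 11.4 and 23.7, a ratio of 2.07. Next came the starts of Yif1a, a gene of transport between endoplasmic reticulum and Golgi, at 14.1 and 27.4, and of Dus1l, an enzyme of tRNA modification, at 16.4 and 31.1. Zdhhc1, Mpp6, Neu1 (a lysosomal sialidase), Npas2 (a clock transcription factor) and Prpsap1 followed with ratios between 1.65 and 1.89. Each of these 8 sites lay within 147 bp of a start. The remaining 2 of the 10 were Xist, described below, and a site on chromosome 18.

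Position was not used by the rule, and the sites lay at gene boundaries far more often than the rest. Of the 963, 648 (67.3%, exact interval 64.2 to 70.2%) were no more than 1 kb from an end of a protein-coding gene, compared with 8151 of the other 50050 (16.3%, 16.0 to 16.6%). When the starts in the promoter table, lncRNA starts included, were counted as well, 749 (77.8%, 75.0 to 80.4%) lay within 1 kb of such a gene boundary, against 20.4% (20.1 to 20.8%) of the others. Only 89 (9.24%) lay over 10 kb from any boundary, against 54.1% of the others. Exact intervals cover counting error only, and neighbouring sites are not independent. No test is given, because both pools were used up in choosing the sites.

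Read the other way, the share of sites that scored higher in replicate 2 followed distance from a gene boundary, whether the site lay inside or outside the gene. It was 6.82% (749 of 10984, exact interval 6.35 to 7.31%) within 1 kb of a boundary, 0.973% (0.810 to 1.16%) between 1 and 10 kb, and 0.327% (0.263 to 0.403%) beyond 10 kb. The peak was at 50 to 100 bp, with 9.92% (8.84 to 11.1%). The ratios of all shared sites differed as well. Within 1 kb of a boundary their 10th percentile, median and 90th percentile were 0.384, 0.665 and 0.946, against 0.265, 0.409 and 0.558 farther away. Near boundaries the sites above equality were thus the upper tail of a broader difference. The median ratio was 0.727 at 50 to 100 bp, 0.476 at 500 to 1000 bp and 0.407 at 5 to 10 kb. From 2 kb outwards it stayed between 0.404 and 0.413, while the share went from 0.945% at 2 to 5 kb to 0.304% beyond 100 kb.

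**Figure D2:**
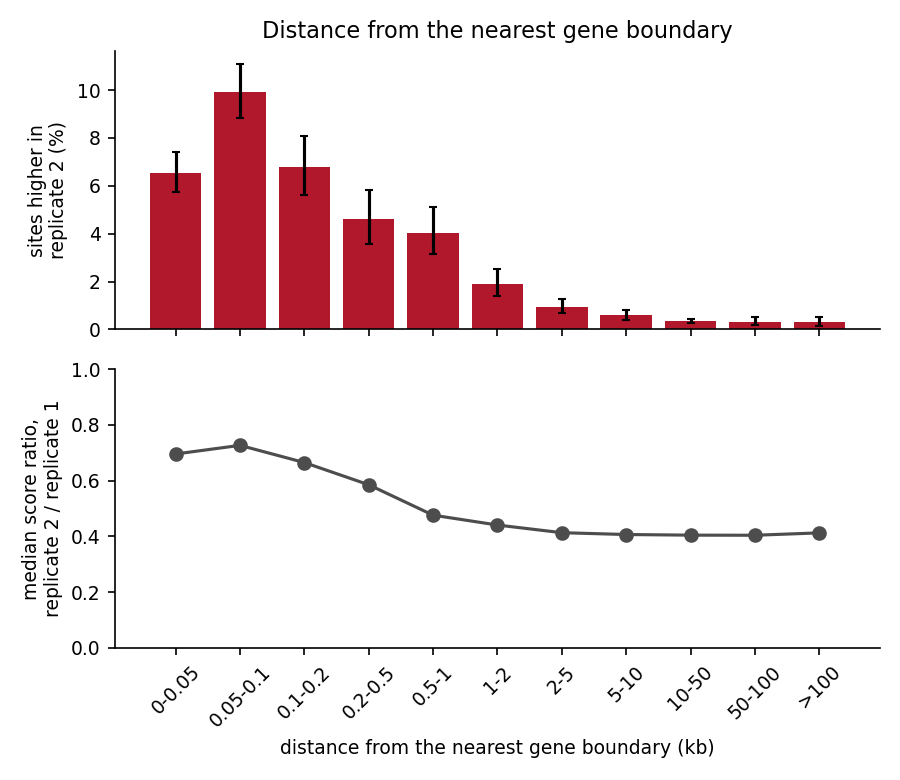
Share of shared sites that scored higher in replicate 2, with 95% exact intervals (top), and median ratio of replicate 2 to replicate 1 score over all shared sites (bottom), by distance in kb from the nearest gene boundary. Both are highest at 50 to 100 bp, with 9.92% and 0.727. Beyond 2 kb the ratio stays between 0.404 and 0.413, while the share goes on from 0.945% at 2 to 5 kb to 0.304% beyond 100 kb.

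The sites favoured the first bases of the transcribed side. Away from chromosome 18, whose starts were not used here, 611 of 933 sites (65.5%) were within 1 kb of a start in the table, and 423 (45.3%, 42.1 to 48.6%) were within 100 bp, against 16.6% and 9.85% of the others. Of the 611, 370 (60.6%, 56.6 to 64.5%) lay in the first 100 bp downstream of the start, against 43.9% (42.8 to 44.9%) of the other start sites. The median position was 52 bp downstream, against 34 bp. The start was that of a protein-coding gene in 93.8% (91.6 to 95.6%) of the 611 and in 83.9% (83.1 to 84.7%) of the others. By kind of gene, 7.88% of sites at protein-coding starts and 2.87% (2.04 to 3.91%) of those at lncRNA starts scored higher in replicate 2. Promoters with starts on both strands within 1 kb did not differ from the rest in a visible way (6.97%, 5.66 to 8.48%, against 7.13%, 6.55 to 7.75%).

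The nearness to gene boundaries was seen at each level of score. Shared sites were divided into 5 equal groups by the mean rank of both scores. In the lowest group 55.0% (49.6 to 60.4%) of the sites higher in replicate 2 lay within 1 kb of a boundary, against 16.4% of the others there. In the next 3 groups the share was 87.5%, 91.5% and 94.0%, against 17.4%, 23.0% and 27.6%. In the highest group 30 of 33 (90.9%, 75.7 to 98.1%) did so, against 17.8%. Sites away from boundaries that scored higher in replicate 2 came mostly from the lowest group, which held 156 of the 214, and the highest group held 3.

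**Figure D3:**
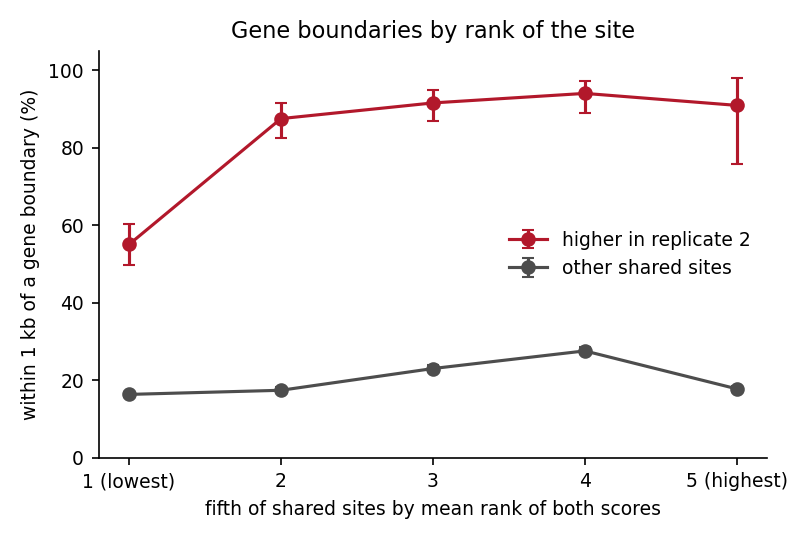
Share of sites within 1 kb of a gene boundary, with 95% exact intervals, for sites higher in replicate 2 and for the other shared sites, in 5 equal groups by mean rank of both scores. The upper curve runs from 55.0% to 94.0% and lies above the lower one, which runs from 16.4% to 27.6%, in each group.

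The 214 sites over 1 kb from a boundary had a median score of 8.94 in replicate 1 and 10.2 in replicate 2. The sites near boundaries had 22.2 and 25.3. After the site near Rdm1, the highest were at chr1:23256315, 20657 bp from the nearest boundary, with 73.7 and 75.0, and at chr10:122985751, 6309 bp from an end of Mon2, a gene of membrane traffic, with 69.4 and 70.8. At a site near Umodl1 (chr17:30949215), 3430 bp from the nearest boundary, the ratio was the largest of all, 2.80, from scores of 3.63 and 10.2. With no minimum score, 3 of the 5 largest ratios lay over 1 kb from a boundary, the others being 44681 bp from Vmn2r87 (2.42) and 1065 bp from an end of Snx20 (2.37).

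The promoters that held these sites were rich in CG. The promoter table holds 32851 windows of 27025 genes, of which 308 contained a site higher in replicate 2 (280 distinct sites, since windows can overlap) and 4854 contained only other shared sites. The windows with a site higher in replicate 2 had a median of 26 CG dinucleotides (10th to 90th percentile 11.7 to 41) and a GC content of 65.7%. The windows of other shared sites had 23 (7 to 38) and 62.3%, and windows with no shared site 5 (1 to 28) and 51.0%. Across windows with any shared site, the share holding a site higher in replicate 2 was 3.93% (2.87 to 5.24%) at 0 to 14 CG and 8.75% (7.09 to 10.6%) at 33 to 61 CG. The median ratio went from 0.524 to 0.768 over the same range.

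**Figure D4:**
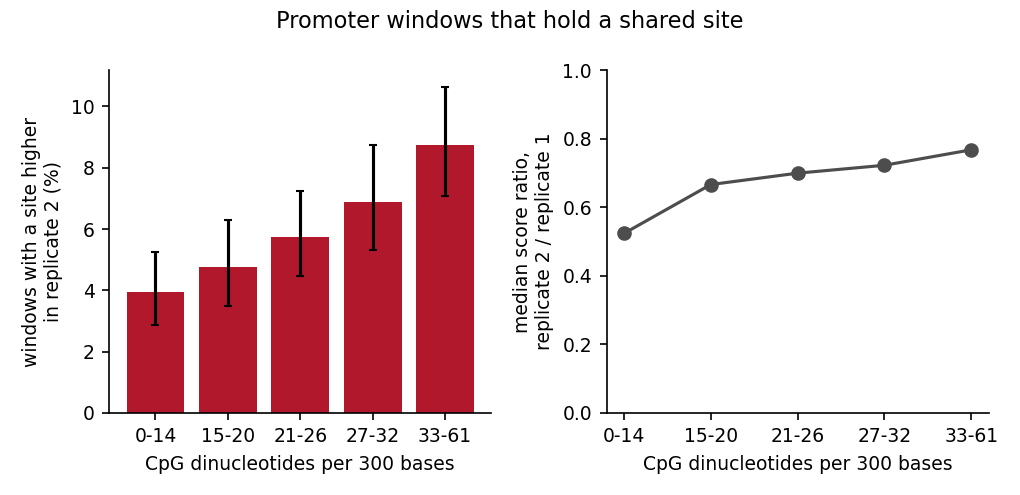
Promoter windows that contain a shared site, in 5 classes by their number of CG dinucleotides per 300 bases: the share with a site higher in replicate 2, with 95% exact intervals (left), and the median score ratio (right). The share goes from 3.93% to 8.75% and the ratio from 0.524 to 0.768.

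The forkhead core was rare in these windows. TGTTTAC or its reverse complement was in 2 of 308 windows with a site higher in replicate 2 (0.649%, exact interval 0.0787 to 2.33%). It was in 213 of 4854 windows of other shared sites (4.39%, 3.83 to 5.003%) and in 3.65% of all 32851. Base composition bears on such a count, so windows of 60 to 70% GC were also taken alone. There it was in 0 of 125 (upper exact limit 2.91%), against 2.99% (2.29 to 3.83%) of 2007 windows of other shared sites and 1.64% of all, and these intervals overlap. The looser TGTTTNC, which includes TGTTTAC, was in 9.74% (6.67 to 13.6%), against 17.7% and 20.5% of all. At 60 to 70% GC that gap was within counting error (9.60%, 5.06 to 16.2%, against 12.5%, 11.0 to 14.0%). A match is only a run of letters in the window, and its absence says nothing of binding nearby.

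Windows of both kinds with the forkhead letters in the 250 bases before the start are printed for comparison, with those letters in capitals. Thap3, at chr4:151988987-151989236 (minus strand), is the only window with a site higher in replicate 2 that holds them there (scores 15.5 and 17.6), since in Furin they are not wholly before the start. The other lines are windows of sites that kept the usual order, limited to windows whose gene had the start nearest to the site. That limit was not set for Thap3. The 3 highest of them by replicate 2 score are Gm17745 at chr10:93335961-93336210 (plus), with 241.0 and 125.6, Btg1, an inhibitor of cell division, at chr10:96616751-96617000 (plus), with 159.1 and 123.5, and 2900052L18Rik at chr11:120231618-120231867 (minus), with 187.3 and 106.4.
Thap3: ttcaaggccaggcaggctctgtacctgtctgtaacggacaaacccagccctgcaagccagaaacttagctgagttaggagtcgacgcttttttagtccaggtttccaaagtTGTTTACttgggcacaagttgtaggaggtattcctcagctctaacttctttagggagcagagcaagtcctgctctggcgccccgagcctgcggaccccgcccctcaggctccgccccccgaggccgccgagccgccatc
Gm17745: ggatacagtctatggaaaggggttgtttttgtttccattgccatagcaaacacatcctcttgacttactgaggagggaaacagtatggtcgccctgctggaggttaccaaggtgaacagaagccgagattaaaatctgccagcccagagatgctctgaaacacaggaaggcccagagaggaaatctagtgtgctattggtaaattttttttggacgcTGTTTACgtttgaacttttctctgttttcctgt
Btg1: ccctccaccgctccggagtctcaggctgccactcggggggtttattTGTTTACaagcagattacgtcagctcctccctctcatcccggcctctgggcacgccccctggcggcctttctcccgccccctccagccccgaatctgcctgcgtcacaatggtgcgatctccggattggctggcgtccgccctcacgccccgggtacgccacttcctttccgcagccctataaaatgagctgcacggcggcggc
2900052L18Rik: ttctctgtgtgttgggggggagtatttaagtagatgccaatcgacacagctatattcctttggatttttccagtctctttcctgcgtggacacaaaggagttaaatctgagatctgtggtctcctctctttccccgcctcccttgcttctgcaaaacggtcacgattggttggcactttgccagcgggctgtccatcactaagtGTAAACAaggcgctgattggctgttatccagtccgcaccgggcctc
The 4 stretches hold 12, 4, 21 and 9 CG. All but Btg1 thus have fewer than any of the 6 promoters printed first. These 4 were picked for holding the forkhead letters and include Thap3, so their CG counts do not compare both kinds of site.

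Other promoter motifs were counted in the same way, on both strands. GGGCGG, the GC box, was in 76.9% (71.8 to 81.5%) of windows with a site higher in replicate 2, 67.1% of windows of other shared sites and 35.7% of all, but at 60 to 70% GC it was in 78.4% and 79.0%. TATAAA was in 2.60% (1.13 to 5.05%), against 7.15% (6.44 to 7.91%) and 13.6% of all. CCAAT was in 28.2% (23.3 to 33.6%), against 37.0% (35.6 to 38.3%) and 37.4% of all. At 60 to 70% GC the intervals of both motifs overlapped: TATAAA was in 0.800% (0.0203 to 4.38%), against 4.38% (3.53 to 5.37%), and CCAAT in 27.2% (19.6 to 35.9%), against 37.4% (35.3 to 39.6%). The ETS letters CCGGAAG were in 19.5% (15.2 to 24.4%), against 24.0% and 8.86% of all. The NRF1 palindrome (2.60%, against 2.55%; 0.971% of all), TGACGTCA, the cAMP response element (3.25%, against 4.29%; 1.79% of all), the ZBTB33 palindrome (1.62%, against 1.42%; 0.466% of all), and AAGATGGCG (5.19%, against 4.29%; 1.40% of all) had overlapping intervals in both kinds of window. The AP-1 letters TGANTCA were in 1.95% (0.718 to 4.19%), against 4.06% (3.52 to 4.65%) and 7.81% of all, with overlapping intervals. At 60 to 70% GC the order was the opposite, again with overlapping intervals (5 of 125 windows, 1.31 to 9.09%, against 3.54%, 2.77 to 4.44%).

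Chromosome X had the highest share of these sites of any chromosome. Of its 1066 shared sites, 39 (3.66%, exact interval 2.61 to 4.97%) scored higher in replicate 2, against 1.85% (1.73 to 1.97%) of the 49946 on autosomes. The highest autosome, chromosome 11, had 2.92% (2.37 to 3.56%), an interval that overlaps that of X. Nearly all were at gene boundaries: 36 of 307 X sites within 1 kb of a boundary (11.7%, 8.35 to 15.9%) and 3 of 759 farther away (0.395%, 0.0816 to 1.15%). On autosomes these shares were 6.68% (6.21 to 7.17%) and 0.537% (0.467 to 0.615%), and single autosomes ranged from 4.85% (chromosome 13) to 8.15% (chromosome 11) near boundaries. The median ratio near boundaries was 0.695 on X and 0.665 on autosomes. The excess was small when sites were compared by percentile rank within each list: there X held 0.556 percentage points more of the sites higher in replicate 2 than of the others, against 2.00 points by score.

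**Figure D5:**
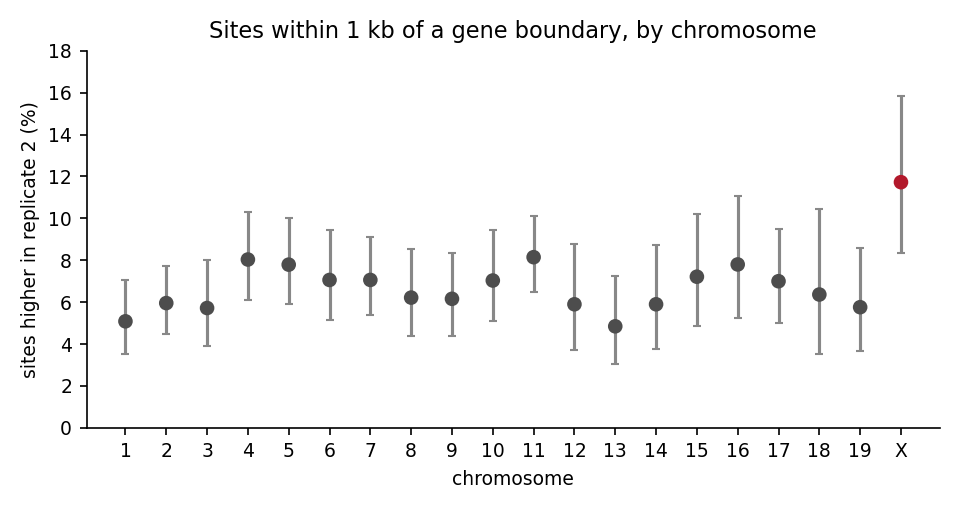
Share of shared sites within 1 kb of a gene boundary that scored higher in replicate 2, by chromosome, with 95% exact intervals; chromosome X is in red and Y has no such site. X stands at 11.7%, and the autosomes lie between 4.85% and 8.15%.

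One of the X sites was the promoter of Xist, the long noncoding RNA that coats the inactive X chromosome in female cells. It lay 22 bp downstream of the start (chrX:103483211), with scores of 16.2 and 28.6, a ratio of 1.76. The promoter of Jpx, a neighbouring noncoding RNA gene that promotes Xist transcription, scored 34.8 and 40.0. The other 9 shared sites around them (chrX:103487819 to chrX:103698135) kept the usual order, among them a site 1374 bp downstream of the Ftx start with 52.8 and 50.4. Further X promoters higher in replicate 2 were those of the actin-binding protein gene Flna (59.9 and 60.3), Ofd1 (50.8 and 51.4), the RNA-binding protein gene Nono (34.8 and 36.4) and Araf, a kinase of the ERK pathway (27.9 and 31.1). On the Y chromosome replicate 1 had 14 summits (0.0130% of its list) and replicate 2 had 1 (0.00163%), while X held 1.96% and 2.04% of the lists. Whether the pools differed in sex was not tested.

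Cell type markers and pathway genes were read against the background. Of 21887 protein-coding genes, 1031 (4.71%) had a site higher in replicate 2 within 5 kb of an end. Only 11896 of the 21887 had any shared site there, and a gene without a shared site could not count. Among fibroblast and matrix genes 4 of 21 did (19.0%, exact interval 5.45 to 41.9%). They were Tcf21, a transcription factor of lung mesenchyme, 25 bp from its start (61.0 and 66.5), the collagen genes Col1a1 (49.9 and 51.4) and Col1a2 (33.1 and 35.5), and the PDGF receptor gene Pdgfra (5.07 and 5.10). Among epithelial genes 5 of 23 did (21.7%, 7.46 to 43.7%), led by the water channel gene Aqp5 of alveolar type 1 cells (37.5 and 43.7), the cell junction gene Cdh1 (25.9 and 29.9), the surfactant protein gene Sftpa1 (10.8 and 12.1) and the cilia factor gene Foxj1 (7.06 and 9.39). The epithelial gene Cldn18 was not counted: its site (30.5 and 32.0) lay 43 bp from a start but 7247 bp from an end. Of genes with a start site, the highest such site scored higher in replicate 2 in 2 of 8 fibroblast and matrix genes and 3 of 11 epithelial genes. Over all 7540 protein-coding genes with a start site this share was 7.41%. The lower bounds of both list intervals lay above the 4.71% of all genes, but that background includes genes that could not count. A shared site was present at 14 of the 21 and at 19 of the 23, so the lists and the background differed in how many genes could count. Among genes with a shared site the counts were 4 of 14 and 5 of 19, against 1031 of 11896. No interval was computed for these, so no excess is read from them. The lists were also small, their genes were not independent, and no list was tested.

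By count, endothelial genes were near the background of all genes, but that background includes genes without a shared site. Of all 21887 protein-coding genes 11896 had a shared site, so the endothelial list had relatively more genes that could count. Only 1 of 24 had such a site (4.17%, 0.105 to 21.1%), a weak one inside Acvrl1, a receptor of the BMP pathway (6.10 and 6.67), although 23 of 24 had a shared site. At the starts of 8 endothelial genes with a start site, the highest site had a ratio of 0.445 to 0.707, with a median of 0.556. Over all 7540 protein-coding genes with a start site the median was 0.711, and in 7.41% of them that highest site scored higher in replicate 2. The start of Kdr, the main VEGF receptor, had 82.5 and 57.3, that of Tek, the angiopoietin receptor, 171.95 and 103.3, and that of Erg, an ETS factor of endothelium, 188.3 and 96.1. All 8 endothelial starts lay below the median of all genes.

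The other lists gave counts of 0 to 3. Smooth muscle and pericyte genes had 2 of 17, at the receptor gene Notch3 (14.1 and 15.5) and the adhesion gene Mcam (11.2 and 12.5), whose highest start site kept the usual order (60.96 and 41.8). Mesothelial genes had 1 of 10, at the keratin gene Krt19 (23.8 and 25.3). Blood and immune genes (0 of 19) and neuronal genes (0 of 14) had none, and neither list had a site at a start. Only 6 of the 19 and 5 of the 14 had any shared site within 5 kb of an end, so most could not count. Ribosomal protein genes had 3 of 26, at the starts of Rpl18 (56.3 and 62.4) and Rpl13 (28.97 and 29.99) and near Rpl19 (28.8 and 32.0). The site near Rpl19 lay 756 bp from an end of that gene and 132 bp from the start of Cacnb1, and the highest site at the start of Rpl19 itself kept the usual order (62.0 and 54.3). Translation and splicing genes had 2 of 22, at the start of Eif4g1 (43.6 and 45.6) and near Eif2s1 (4.10 and 5.48). The latter site lay 970 bp from an end of Eif2s1 and 536 bp from the start of Atp6v1d, and the highest site at the start of Eif2s1 kept the usual order (59.2 and 43.4). Mitochondrial genes had 1 of 22 (Uqcrc2, 42.6 and 42.9). Cell cycle genes (0 of 25), AP-1 and immediate early genes (0 of 20) and heat shock genes (0 of 18) had none, with median start ratios of 0.550, 0.680 and 0.749.

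Among developmental pathways, genes of BMP, TGF-beta, hedgehog and WNT signalling had 3 of 35: Hhip, which binds and limits hedgehog ligands (23.8 and 26.1), the ligand gene Bmp2 (18.4 and 22.1) and the ligand gene Shh (10.16 and 10.17). The VEGF, angiopoietin and Notch list had 1 of 21, near the Notch target gene Hes1 (9.54 and 9.56). Forkhead genes had 2 of 28, Foxj1 and Foxp4 (43.1 and 43.7), and the start site of Foxf2, the closest relative of Foxf1, fell just short (43.1 and 41.8). Foxf1 itself (chr8:121084386-121088154) and its noncoding neighbour Fendrr (chr8:121054882-121083110) had none. The 19 shared sites within 100 kb of Foxf1 had ratios of 0.220 to 0.750, with a median of 0.476. The nearest site higher in replicate 2 lay 1463162 bp away, at the start of Piezo1, a mechanically gated channel (61.4 and 65.9).

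The sites were spread thinly over the genes. By nearest protein-coding gene end within 100 kb, 939 of them fell to 917 genes, of which 22 had 2 and 895 had 1. Apoe, a lipid transport gene, had 2 among its 2 shared sites, at 12.7 and 15.5 and at 12.1 and 14.8. Col1a2 had 2 of 9, the tight junction gene Cldn4 2 of 5, the deacetylase gene Hdac4 2 of 5 and the zinc finger gene Casz1 2 of 16. Further sites of the same genes, away from boundaries, were seldom higher in replicate 2. In 303 genes with a site higher in replicate 2 within 1 kb of an end and further shared sites beyond 1 kb of any boundary, 8 of 1046 of those further sites (0.765%, 0.331 to 1.501%) scored higher in replicate 2. In the remaining genes it was 185 of 30088 (0.615%, 0.530 to 0.710%), with overlapping intervals. The median ratio of these further sites was 0.400 and 0.409.

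Neighbouring sites shared the order more often. Where another shared site lay within 10 kb, the nearest one also scored higher in replicate 2 for 32 of 509 sites (6.29%, 4.34 to 8.76%), against 1.54% (1.41 to 1.69%) for the other shared sites. Among sites within 1 kb of a boundary these shares were 6.34% (4.06 to 9.36%) and 3.98% (3.46 to 4.54%), with overlapping intervals. Sites that are each other's nearest are counted from both sides. The counts are thus not independent, and the intervals are too narrow. The median distance between the summits of a pair was 17 bp, against 13 bp in the other shared sites. Near boundaries it was 16 bp in the sites higher in replicate 2 and 14 bp in the others.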

How the data were processed

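FOXF1 chromatin immunoprecipitation was sequenced in 2 pools of 3 wild-type lungs, with 1 input. Per the submitters' processing notes, the authors called peaks with MACS2 on mm10. Per the peak names, each replicate was called against a control. The sources used here do not give the version, aligner, options, duplicate handling or read depth. The deposited score of each single-base summit is −log10 of a p or q value. It depends on depth and on the input, so its precision is unknown.

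Summits of the autosomes, X and Y were paired as mutual nearest neighbours within 100 bp and placed midway. The site was compared with 21887 protein-coding genes and the promoter windows of RefSeq (GRCm38.p6). All 345 entries of 16 gene lists matched. Sites on chromosome 18 enter the counts, its starts were not used, and its genes are not named. Python 3.11.15, pandas 2.3.3, numpy 2.4.6 and scipy 1.17.1 were used. The pairing and distances were tested on simulated summits spaced so that no other summit could intervene. Pairing among crowded summits was not tested. Intervals are exact (Clopper-Pearson, 95%).

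The genes named are Foxf1, Fendrr, the 10 highest sites, the 10 largest ratios with both scores at least 10, genes with most sites, up to 4 genes per list and the sites nearest equality. Other genes named (X genes, endothelial starts, Cldn18, Foxf2, Umodl1, Vmn2r87, Snx20) and the combined gene boundary were chosen after values were seen. The sites and lists were chosen with earlier results of these data known. Scores decided membership and no replicate was left over, so no test was run. Alternatives changed the pairing distance, score minimum, ranking, margin and distances.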

Additional observations from a re-analysis of the deposited data

How the results depend on the processing

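Of 31 recomputed values, 16 stayed within the counting interval of the main one and 15 moved out of it. No alternative reversed the direction of an excess. The share of sites and the summit distance cannot be negative, so for them no reversal was possible. The share of shared sites scoring higher in replicate 2 (1.89%) was 1.77% with pairing within 50 bp, 2.09% within 200 bp, 1.75% with both scores at least 10, 0.451% where a clear margin was required (the 230 sites of largest ratio) and 8.22% by percentile rank within each list. The 4192 sites kept by percentile rank included 944 of the 963, which is 98.0% of the one set and 22.5% of the other. The excess near ends of protein-coding genes (51.0 percentage points) was 58.9 with both scores at least 10, 61.4 by percentile rank and 39.5 with the margin. The excess on X (2.00 points) was 0.556 by percentile rank. The excess of like neighbours (4.74 points) was 2.73 with pairing within 50 bp and, in an alternative chosen after seeing the data, 2.36 among sites within 1 kb of a boundary. The median distance between paired summits (17 bp) was 13 bp within 50 bp, 23 bp within 200 bp, 13 bp by percentile rank and 23 bp with the margin; the pairing distance limits it by construction. For the other moves the cause was not tested. No replicate could be left out, since the rule needs both. No paired analysis was possible because both lists belong to 1 group and share only the input. Read depth is unknown, so scores near the lower limit cannot be given an error.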

Other observations

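Scores recurred at fixed values. Replicate 1 had 2940 distinct scores and replicate 2 had 1927, and a score held by at least 50 summits of its list was found at 84.0% and 81.2% of all summits. Of the sites higher in replicate 2, 83.8% (exact interval 81.3 to 86.1%) had such a recurring replicate 1 score, against 74.5% (74.1 to 74.9%) of the other shared sites. For the replicate 2 score the shares were 86.0% (83.6 to 88.1%) and 80.5% (80.1 to 80.8%). Recurrence is a property of the scores that chose the sites, so these gaps can follow from the rule and are only a description. The mitochondrial summits, 10 in replicate 1 and 6 in replicate 2, were left out.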
